A study of Mus musculus with 16 samples.

Results

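Interferon regulatory factors (IRFs) are transcription factors that switch on genes after interferons bind their receptors or after sensors detect foreign or misplaced nucleic acid. The messenger RNA (mRNA) of 8 family genes, Irf1, Irf2, Irf3, Irf4, Irf5, Irf7, Irf8 and Irf9, was followed in 16 B16F10 tumors. The 8 genes were picked by symbol from a table of 18929 genes, and all 8 passed a filter (0.5 FPKM or higher in 4 tumors or more) that kept 12850 genes for testing. FPKM is fragments per kilobase of transcript, scaled to the mapped fragments of the library, so levels of different genes can be set side by side per length.

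B16F10 is a mouse melanoma cell line, and every tumor grew from it in the right abdomen of a female C57BL/6 mouse aged 7 to 8 weeks with an intact immune system. Treatment by intraperitoneal injection began when tumors measured about 50 mm3 and lasted 9 to 11 days. The vehicle group received corn oil and, per the study's methods, an IgG isotype control. The anti-PD1 group received PD1 mAb, at a dose not given in the sources used here, the α-KG group received α-ketoglutarate at 100 mg/kg, and the α-KG + anti-PD1 group received both. Each group held 4 tumors, sequenced as whole tissue, so tumor cells, leukocytes, blood and stroma were read together. In such bulk samples, fewer cells of a type and less RNA per cell cannot be told apart.

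By textbook knowledge the members fall into 3 classes, which set the order below. Irf1, Irf7 and Irf9 are themselves induced by interferons. Irf1 is switched on through a gamma-activated site (GAS), whereas IRF9 is part of the ISGF3 complex, which binds the interferon-stimulated response element (ISRE) and switches on Irf7 among many antiviral genes. Irf4, Irf5 and Irf8 are largely restricted to leukocytes. IRF4 acts in lymphocytes and some dendritic cells, IRF5 drives inflammatory cytokine genes in macrophages, and IRF8 steers myeloid progenitors toward monocytes and dendritic cells and away from neutrophils. Irf2 and Irf3 are expressed in most cells. IRF2 competes with IRF1 for the same DNA, and IRF3 is present beforehand and is activated by phosphorylation, which mRNA levels do not show.

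The genes lie on the mouse build GRCm38 (mm10) at chr11:53770014-53778374 for Irf1, chr7:141262706-141266481 for Irf7, chr14:55603571-55610030 for Irf9 and chr13:30749226-30766976 for Irf4. Irf5 lies at chr6:29526625-29541871, Irf8 at chr8:120736358-120756694, Irf2 at chr8:46739732-46847458 and Irf3 at chr7:44997648-45002848. The 250 bases before the RefSeq start sites (GRCm38.p6) of all 8 genes were searched on both strands for GAS (TTCNNNGAA) and for ISRE (GAAA, a pair of any bases, then GAAA again). Of 32851 such windows of the genome, 7.02% held a GAS match and 2.98% an ISRE match. The windows of Irf1, Irf8 and Irf2 held matches, and those of Irf3, Irf4, Irf5, Irf7 and Irf9 held none, which says only that these letters are not there. The Irf9 windows lie inside the gene span given above and hold Irf9 exon bases, so the bases before that span were not searched. The windows of Irf2, Irf4 and Irf7 also hold bases of their own exons. A further annotated start of Irf1 and of Irf8 each had a window without a match. Shown are the Irf1 window at chr11:53769764-53770013, the Irf8 window at chr8:120736108-120736357, the distal 100 bases of the Irf2 window at chr8:46739495-46739594, whose first bases lie in an exon of the opposite-strand transcript Gm16675, and, for comparison, the Irf5 window at chr6:29526375-29526624. All are on the plus strand, the first and second of these windows and that of Irf5 hold no annotated exon, and capitals mark the matches.
Irf1: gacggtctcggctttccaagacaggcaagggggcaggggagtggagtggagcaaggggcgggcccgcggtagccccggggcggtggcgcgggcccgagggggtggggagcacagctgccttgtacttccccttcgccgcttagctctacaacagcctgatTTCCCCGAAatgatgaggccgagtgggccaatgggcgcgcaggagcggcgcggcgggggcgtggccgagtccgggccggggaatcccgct
Irf8: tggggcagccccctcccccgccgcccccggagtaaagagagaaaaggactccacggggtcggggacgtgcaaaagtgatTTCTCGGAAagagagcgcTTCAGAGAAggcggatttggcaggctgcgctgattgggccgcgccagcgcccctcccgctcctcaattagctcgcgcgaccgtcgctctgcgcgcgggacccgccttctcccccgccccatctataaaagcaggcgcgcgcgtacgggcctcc
Irf2: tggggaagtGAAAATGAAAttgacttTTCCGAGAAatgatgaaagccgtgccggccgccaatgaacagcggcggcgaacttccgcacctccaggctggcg
Irf5: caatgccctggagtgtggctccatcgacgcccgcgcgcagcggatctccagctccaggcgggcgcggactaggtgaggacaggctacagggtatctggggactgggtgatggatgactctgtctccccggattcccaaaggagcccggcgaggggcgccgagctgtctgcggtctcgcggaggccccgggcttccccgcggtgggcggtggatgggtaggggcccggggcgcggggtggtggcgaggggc
Counting backward from the base before the start, Irf1 held 1 GAS at -90 to -82 and Irf8 held 2, at -171 to -163 and at -153 to -145. The Irf2 window held 1 ISRE at -241 to -232 and 1 GAS at -224 to -216. Irf5, whose window held neither, was the member with the highest correlation with leukocyte markers, as described below.

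The FPKM values summed to between 514180 and 654772 per tumor, and no counts or depths were given, so the precision of single low values is unknown. Markers of melanocytes were high in every tumor, with a score (mean log2(FPKM + 1) of the listed genes) of 9.17 to 9.61, whereas the keratinocyte score was 0.0244 to 0.253. The pan-leukocyte score (Ptprc, Cd52, Cd53, Coro1a, Laptm5, Arhgdib and Cytip) ranged in vehicle tumors from 2.88 to 4.44, in anti-PD1 tumors from 4.53 to 5.36, in α-KG tumors from 5.91 to 6.11 and with both agents from 5.04 to 6.67. The neutrophil score was 6.72 to 7.89 in α-KG tumors and 2.11 to 4.09 in the other 12. Red cell genes held 2.10% to 2.24% of the FPKM sum after treatment with both agents and 4.24% to 22.3% in the other tumors, and the skeletal muscle score was 3.08 to 6.32 in vehicle tumors and at most 3.36 elsewhere. The part of these differences in the IRF levels was not tested, beyond the fits with a score as covariate given below.

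The interferon-induced members, like all other members, had their highest means in α-KG + anti-PD1 tumors. Irf1 was at 97.7, 53.1, 109 and 33.9 FPKM in α-KG + anti-PD1 tumors 1 to 4. The anti-PD1 tumors held 7.74, 38.1, 38.5 and 10.8 FPKM of Irf1, the α-KG tumors 11.2, 16.4, 9.85 and 9.31, and the vehicle tumors 19.5, 11.3, 3.18 and 3.54. The lowest α-KG + anti-PD1 tumor thus lay above every vehicle and every α-KG tumor, and below anti-PD1 tumors 2 and 3. The log2 difference of Irf1, here always on the log2(FPKM + 1) scale, was 3.02 against vehicle (95% interval 1.82 to 4.22, limma adjusted p = 0.000961) and 2.44 against α-KG (1.24 to 3.64, adjusted p = 0.00428). Against anti-PD1 it was 1.75 (0.55 to 2.95, adjusted p = 0.0478), just under the threshold of 0.05.

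Irf7, the amplifier of type I interferon production, was at 33.3, 18.8, 47.3 and 17.7 FPKM in α-KG + anti-PD1 tumors 1 to 4. In vehicle tumors it was nearly the same in each, at 8.29, 7.61, 7.66 and 8.20 FPKM. The anti-PD1 tumors held 7.01, 15.4, 16.2 and 10.8 FPKM and the α-KG tumors 14.0, 18.4, 13.4 and 9.98. Its coefficient of variation among vehicle tumors was 4.47%, against 82.2% for Irf1 and 35.4% for Irf9, so vehicle tumors that differed widely in Irf1 were close together in Irf7. Irf7 rose by 1.65 against vehicle (adjusted p = 0.000623), by 1.13 relative to anti-PD1 (adjusted p = 0.0218) and by 0.94 relative to α-KG (adjusted p = 0.0175). It was the one member whose α-KG + anti-PD1 tumors all lay above all anti-PD1 tumors, as in 13.6% of all genes tested. Irf9, the DNA-binding part of ISGF3, was at 15.7 to 28.4 FPKM in α-KG + anti-PD1 tumors, where the anti-PD1 tumors held 7.10 to 20.1 FPKM, the α-KG tumors 9.39 to 15.99 and the vehicle tumors 5.23 to 10.7. It rose by 1.46 against vehicle (adjusted p = 0.00177) and by 0.83 against α-KG (adjusted p = 0.0426), and differed by 0.82 from anti-PD1 (adjusted p = 0.0756).

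**Figure D1:**
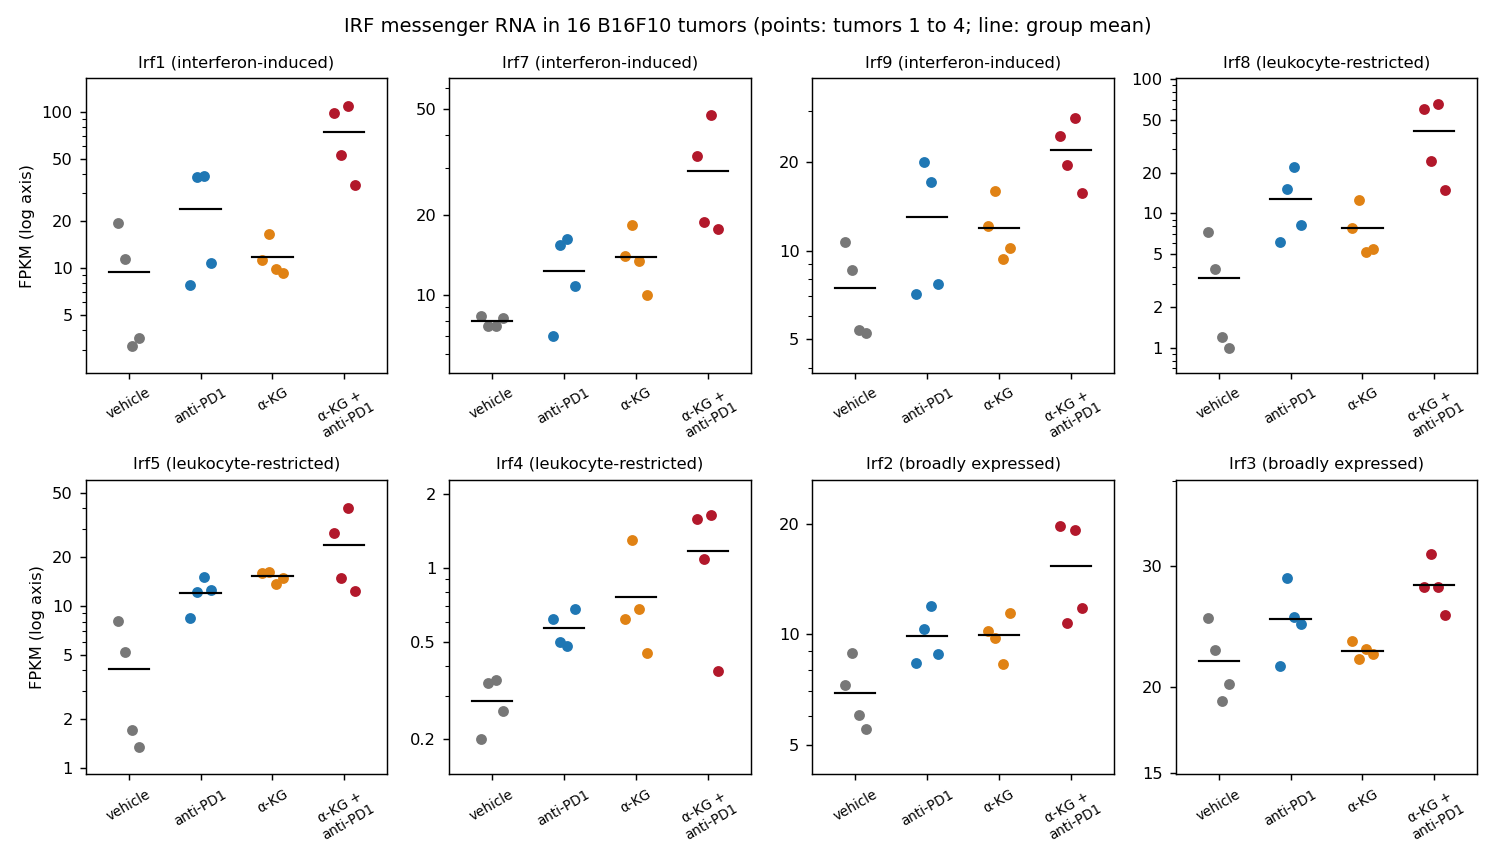
FPKM of the 8 IRF genes on a log axis in each tumor, by group, with a line at the mean of the 4 tumors. Irf7 is tight in vehicle tumors (7.61 to 8.29), Irf5 is tight in α-KG tumors (13.8 to 16.2), and Irf1 and Irf8 spread within the vehicle and anti-PD1 groups.

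The leukocyte-restricted members did not share one pattern. Irf8 was at 59.6, 24.6, 65.9 and 14.9 FPKM in α-KG + anti-PD1 tumors 1 to 4. The α-KG tumors held 7.83, 12.6, 5.20 and 5.42 FPKM, the anti-PD1 tumors 6.12, 15.3, 22.1 and 8.22, and the vehicle tumors 7.22, 3.86, 1.19 and 1.00. No α-KG + anti-PD1 tumor overlapped vehicle or α-KG, and tumor 4 lay below anti-PD1 tumors 2 and 3. Irf8 rose by 3.30 against vehicle (adjusted p = 0.000476) and by 2.11 against α-KG (95% interval 0.99 to 3.22, adjusted p = 0.00632), and its difference from anti-PD1 was 1.52 (0.40 to 2.63, adjusted p = 0.0588).

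Irf5 behaved otherwise in the α-KG group. It was at 16.1, 16.2, 13.8 and 14.9 FPKM in the α-KG tumors and at 8.11, 5.22, 1.71 and 1.35 in vehicle. The anti-PD1 tumors held 8.41, 12.3, 15.1 and 12.5 FPKM, and the α-KG + anti-PD1 tumors 28.1, 14.97, 40.4 and 12.4. All 4 α-KG tumors lay above all vehicle tumors, and all 4 lay within the range of the α-KG + anti-PD1 tumors. Irf5 was the only member called between α-KG and vehicle, in a comparison with 8.4% of all genes called higher. It rose there by 1.89 (95% interval 1.06 to 2.73, adjusted p = 0.00398), and by 2.37 between α-KG + anti-PD1 and vehicle (adjusted p = 0.000558). With the pan-leukocyte score as a covariate the difference between α-KG and vehicle was -0.53 and was not called, in groups whose scores do not overlap. Adding anti-PD1 to α-KG gave a log2 difference of 0.47 (-0.36 to 1.31, adjusted p = 0.358).

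Irf4 was the lowest member in every group. Its tumors were at 0.20, 0.34, 0.35 and 0.26 FPKM in vehicle and at 0.62, 0.50, 0.48 and 0.68 in anti-PD1. No vehicle tumor reached 0.5 FPKM, so Irf4 passed the filter only through treated tumors. The α-KG tumors held 0.62, 1.30, 0.68 and 0.45 FPKM, and the α-KG + anti-PD1 tumors 1.58, 1.09, 1.64 and 0.38. All 3 treated groups lay above vehicle, though α-KG + anti-PD1 tumor 4 (0.38) was next to the highest vehicle tumor (0.35). Against vehicle the log2 difference of α-KG + anti-PD1 was 0.71 (adjusted p = 0.00568). This value decided the Irf4 calls against the single agents. Without α-KG + anti-PD1 tumor 4, Irf4 also passed when set against anti-PD1 (0.63, adjusted p = 0.0102) or α-KG (0.48, adjusted p = 0.0175), where with it the differences were 0.43 (adjusted p = 0.111) and 0.28 (adjusted p = 0.237). The plasmacytoid dendritic cell score ranged from 0.573 to 1.59 for α-KG tumors and from 0.437 to 1.65 for tumors given both agents, against 0.337 to 0.428 in vehicle, and the B and plasma cell score reached 1.90 in 1 α-KG tumor against 0.849 or less in vehicle. The part of these cells in the Irf4 level was not tested.

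Of the broadly expressed members, Irf3 was tight in every group, with a coefficient of variation of 2.55% to 12.5%. Irf3 was at 27.98, 31.3, 27.99 and 25.5 FPKM in α-KG + anti-PD1 tumors and at 25.2, 22.6, 19.1 and 20.2 in vehicle. The α-KG tumors were within 22.0 to 23.3 FPKM and the anti-PD1 tumors within 21.5 to 28.9. Its log2 difference was 0.36 relative to vehicle (adjusted p = 0.00726) and 0.30 relative to α-KG (adjusted p = 0.0214), set against a median over all genes tested of 0.15 and 0.16. After centering each tumor on its median these became 0.05 and 0.03 and did not pass. Irf2 was at 19.8, 10.7, 19.2 and 11.8 FPKM in α-KG + anti-PD1, 8.31 to 11.4 in α-KG, 8.36 to 11.9 in anti-PD1 and 5.53 to 8.87 in vehicle tumors. It rose by 1.02 against vehicle (adjusted p = 0.000877), and by 0.70 after centering (adjusted p = 0.00204), where the all-gene median was -0.16.

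Counted over the family, 8 of 8 members were higher in α-KG + anti-PD1 than in vehicle tumors, a comparison in which 34.9% of all genes tested were called higher. Without overlap between the groups were 8 of 8 members and 28.2% of all genes. Both counts include Irf4, which passed the filter only through treated tumors. The median log2 difference of the 8 members was 1.56, against 0.15 over all genes. Under quantile normalization or centering 6 members passed, with Irf3 and Irf4 lost. Against α-KG, 6 members were higher (31.8% of all genes) and Irf4 and Irf5 were not called, and 3 members did not overlap (29.7% of all genes). Under quantile normalization 3 members passed, Irf1, Irf7 and Irf8, and after centering 2, Irf1 and Irf8. The shares of all genes called under these scalings are not given, here or for the gene lists below.

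Against anti-PD1, Irf1 and Irf7 were called higher (14.2% of all genes were) and 1 member did not overlap (13.6% of all genes), with a median over the members of 0.81. This was the least settled of the comparisons with α-KG + anti-PD1. The Irf1 call was lost without any 1 of 10 tumors, with log2 differences of 1.36 to 1.86. These were vehicle tumor 2, anti-PD1 tumors 1 and 4, α-KG tumors 1 to 4 and α-KG + anti-PD1 tumors 1, 2 and 3. The Irf7 call was lost without anti-PD1 tumor 1 or 4 (0.91 and 1.09) or α-KG + anti-PD1 tumor 1 or 3 (1.04 and 0.87). Irf2, Irf8 and Irf9, whose adjusted p lay between 0.0558 and 0.0756, passed without α-KG + anti-PD1 tumor 4 (0.66, 1.91 and 0.96), and without some other tumors too. These were anti-PD1 tumor 3 for Irf2 (0.64) and Irf8 (1.81), α-KG + anti-PD1 tumor 2 for Irf2 (0.70), anti-PD1 tumor 2 for Irf9 (1.05) and vehicle tumor 1 for Irf8 (1.52). When the tumors were rescaled to the same FPKM sum 7 members passed, and when only both compared groups were fitted none of the 8 did. The shares of all genes called in these fits are not given here. At the same sum the all-gene median was 0.28, against 0.12 in the main fit. Against α-KG, leaving out 1 tumor ended the Irf9 call in 6 cases (0.70 to 0.87), the Irf2 call in 5 (0.41 to 0.55) and the Irf7 call without tumor 4 of α-KG (0.80) or without tumor 3 of α-KG + anti-PD1 (0.67). The Irf3 call ended without α-KG + anti-PD1 tumor 2 (0.25). The 6 tumors for Irf9 were α-KG tumors 1, 3 and 4 and α-KG + anti-PD1 tumors 1, 2 and 3, and the 5 for Irf2 were α-KG tumors 1, 2 and 3 and α-KG + anti-PD1 tumors 1 and 3.

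With either agent alone, few differences passed. Between anti-PD1 and vehicle, limma called 0 of 8 members (5 at an unadjusted p under 0.05), in a comparison with 0.747% of all genes called. Irf8 had the largest log2 difference, 1.78 (95% interval 0.67 to 2.90, adjusted p = 0.108), followed by Irf5 with 1.56 (0.72 to 2.39, adjusted p = 0.0680). Without vehicle tumor 1 both passed, with 2.18 and 1.91. Irf4 and Irf5 did not overlap between these groups, as did not 5% of all genes in the upward direction. Irf4 passed the filter only through treated tumors, so its lack of overlap with vehicle was favored by the filter. Between α-KG and vehicle, 1 of 8 members was called (8.4% of all genes were higher). Irf5, Irf7 and, with the same limit, Irf4 did not overlap (10.1% of all genes). Irf1 differed there by 0.58 (-0.62 to 1.78, adjusted p = 0.535), Irf7 by 0.71 (adjusted p = 0.103) and Irf8 by 1.19 (0.08 to 2.31, adjusted p = 0.137). Irf8 passed without vehicle tumor 1 (1.59) and Irf4 passed without α-KG + anti-PD1 tumor 4 (0.43, adjusted p = 0.0388), which moves only the shared estimate of the spread. Between α-KG and anti-PD1 limma called none of the 8 members (0 at an unadjusted p under 0.05; 3.16% of all genes were called). The interval for Irf1 was -1.88 to 0.51 and that for Irf5 -0.50 to 1.17.

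Whether anti-PD1 changed a member differently with and without α-KG was asked with an interaction term. It called 0 of 8 members (0 at an unadjusted p under 0.05; 11.1% of all genes were called). The term was 1.17 for Irf1 (95% interval -0.52 to 2.87, adjusted p = 0.339) and -1.08 for Irf5 (-2.27 to 0.10, adjusted p = 0.205). With the pan-leukocyte score as a covariate 4 terms were called, all higher (Irf1 3.08, Irf8 2.19, Irf7 1.12 and Irf2 0.68), and that of Irf5 turned to 0.40 without a call. The share of all genes called in this fit is not given here. The scores of vehicle, anti-PD1 and α-KG tumors do not overlap, so the treatment and the amount of leukocyte RNA cannot be told apart. With the macrophage and monocyte score, added after seeing the data, 2 terms were called higher (Irf1 2.29 and Irf8 1.43). Vehicle tumors do not overlap the other groups in that score. These comparisons share tumors, the vehicle tumors 3 times and each treated group likewise, so they are not independent of each other.

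**Figure D2:**
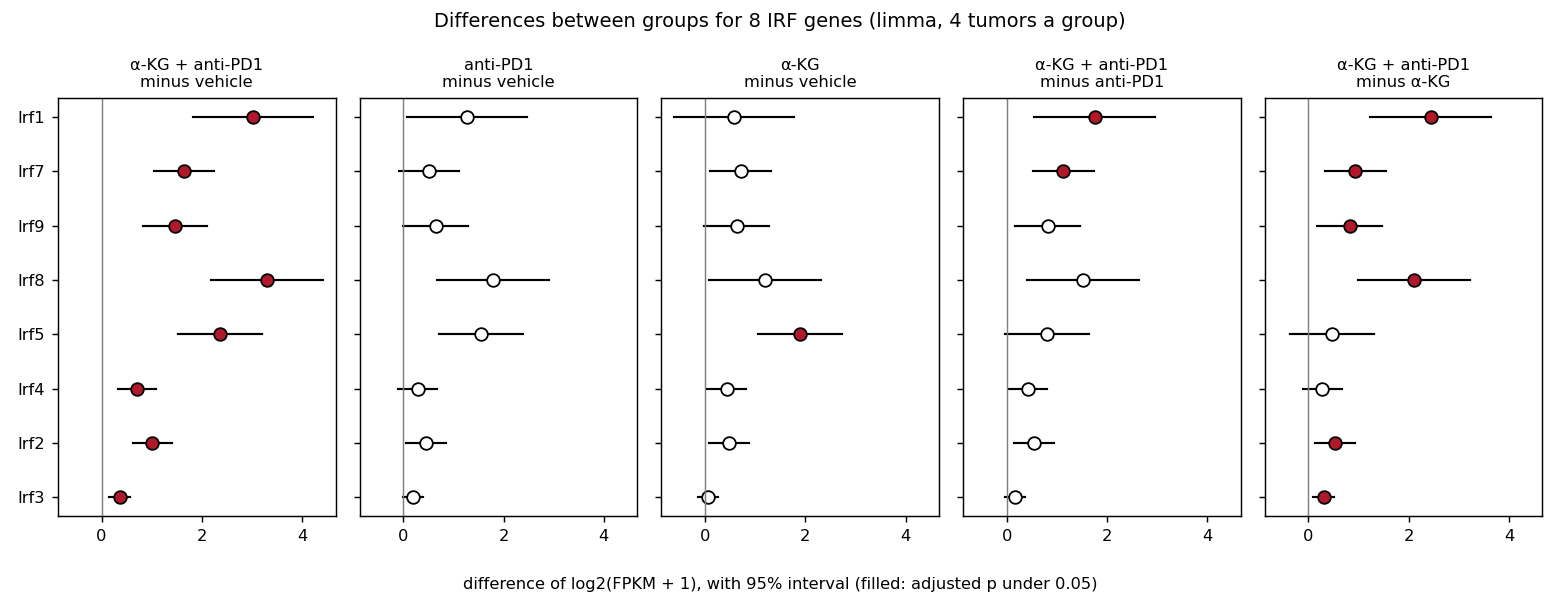
Differences of log2(FPKM + 1) between groups for the 8 genes, with 95% intervals from limma and filled points where the adjusted p was under 0.05. All points are filled against vehicle in the α-KG + anti-PD1 group, whereas Irf5 alone is filled for α-KG against vehicle.

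Irf5 and Irf8 stood in unlike proportion in the α-KG tumors and after both agents. In FPKM, Irf5 was 1.28 to 2.75 times Irf8 in α-KG tumors and 0.471 to 0.827 times Irf8 in α-KG + anti-PD1 tumors. In vehicle tumors the ratio was 1.12 to 1.44 and in anti-PD1 tumors 0.686 to 1.52. Relative to Ptprc, which encodes the leukocyte antigen CD45, Irf8 stood at 0.231 to 0.719 in α-KG tumors and at 1.14 to 2.44 in the other 12, with no overlap. Irf5 relative to Csf1r, the macrophage growth factor receptor, was 0.589 to 0.684 in α-KG tumors, 0.671 to 0.795 in α-KG + anti-PD1, 0.734 to 0.848 in anti-PD1 and 0.672 to 0.983 in vehicle tumors. These ratios were chosen after their values were seen and carry no test. The α-KG tumors were also the ones with the high neutrophil score, and neutrophils contain CD45. The part of that in the low ratio of Irf8 to Ptprc was not tested.

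**Figure D3:**
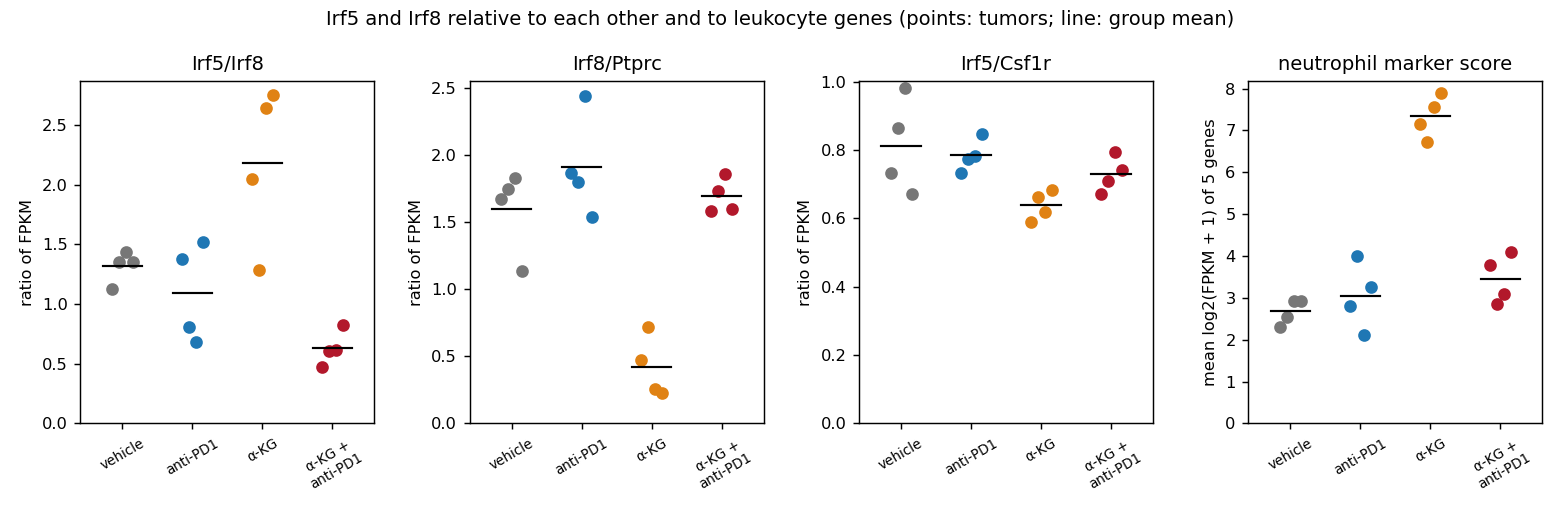
Ratios of FPKM and the neutrophil marker score (mean log2(FPKM + 1) of S100a8, S100a9, Csf3r, Cxcr2 and Retnlg) by tumor and group, with group means as lines. The α-KG tumors have the lowest ratios of Irf8 to Ptprc (0.231 to 0.719) and the highest neutrophil scores (6.72 to 7.89), while their ratio of Irf5 to Csf1r adjoins that of the other groups.

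Across the 16 tumors, each member was set against the leukocyte markers and against the main ligand. On the log2 scale Irf5 had r = 0.963 with the pan-leukocyte score (permutation p = 1e-05, the smallest that 100000 permutations give, adjusted p = 4e-05; rho = 0.909, p = 2e-05, adjusted p = 8e-05). Without the 2 tumors farthest from the median score, vehicle tumors 3 and 4, r was 0.920, and among deviations from the group means it was 0.957 (permutation p = 0.00067). Irf5 thus moved with the leukocyte markers between groups and within them. For Irf1 the same relation was looser, with r = 0.685 (permutation p = 0.00376, adjusted p = 0.00430; rho = 0.529, p = 0.0378, adjusted p = 0.0403), 0.454 without those 2 tumors and 0.856 within groups (permutation p = 0.00039). For Irf8 it was r = 0.785 (permutation p = 0.00036, adjusted p = 0.00064; rho = 0.615, p = 0.0132, adjusted p = 0.0163), 0.599 without them and 0.904 within groups (permutation p = 0.00045). In the α-KG tumors the scores lay within the range seen after both agents, while Irf1 lay within the range of the anti-PD1 tumors and Irf8 within or below it.

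Ifng, which encodes interferon gamma, was at 11.49, 4.37, 14.4 and 1.37 FPKM in α-KG + anti-PD1 tumors, 0.26, 1.63, 2.42 and 0.72 in anti-PD1, 0.27, 0.77, 0.18 and 0.06 in α-KG, and 0.79, 0.26, 0 and 0.11 in vehicle. In each of the 4 groups, ranking the tumors by Ifng gave the same order as ranking them by Irf1. Irf1 followed Ifng with r = 0.929 (permutation p = 1e-05, adjusted p = 4e-05; rho = 0.967, p = 1e-05, adjusted p = 8e-05), 0.912 without α-KG + anti-PD1 tumors 1 and 3 and 0.807 within groups (permutation p = 1e-05). For Irf8 the values were r = 0.919 (permutation p = 1e-05, adjusted p = 4e-05; rho = 0.952, p = 1e-05, adjusted p = 8e-05), 0.859 without them and 0.893 within groups (permutation p = 1e-05). For Irf5 they were r = 0.689 (permutation p = 0.0056, adjusted p = 0.00597; rho = 0.618, p = 0.0123, adjusted p = 0.0163), 0.484 without them and 0.761 within groups (permutation p = 0.0002). Irf8, assigned to the leukocyte-restricted class, thus had values with Ifng close to those of the interferon-induced Irf1. This was not particular to Irf8, as members of all 3 classes followed Ifng. The r with Ifng was 0.896 for Irf7, 0.855 for Irf9, 0.844 for Irf2, 0.785 for Irf3 and 0.751 for Irf4. With the pan-leukocyte score these members had r = 0.762, 0.771, 0.833, 0.566 and 0.732. The difference between these correlations was not tested. Irf1 and Irf8 had r = 0.969 with each other, Irf1 and Irf9 0.959, Irf5 and Irf8 0.888 and Irf1 and Irf5 0.798. The p values of the 8 members with both measures, 16 relations in all, were adjusted together, and the groups that make up the tumors differ in both measures.

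**Figure D4:**
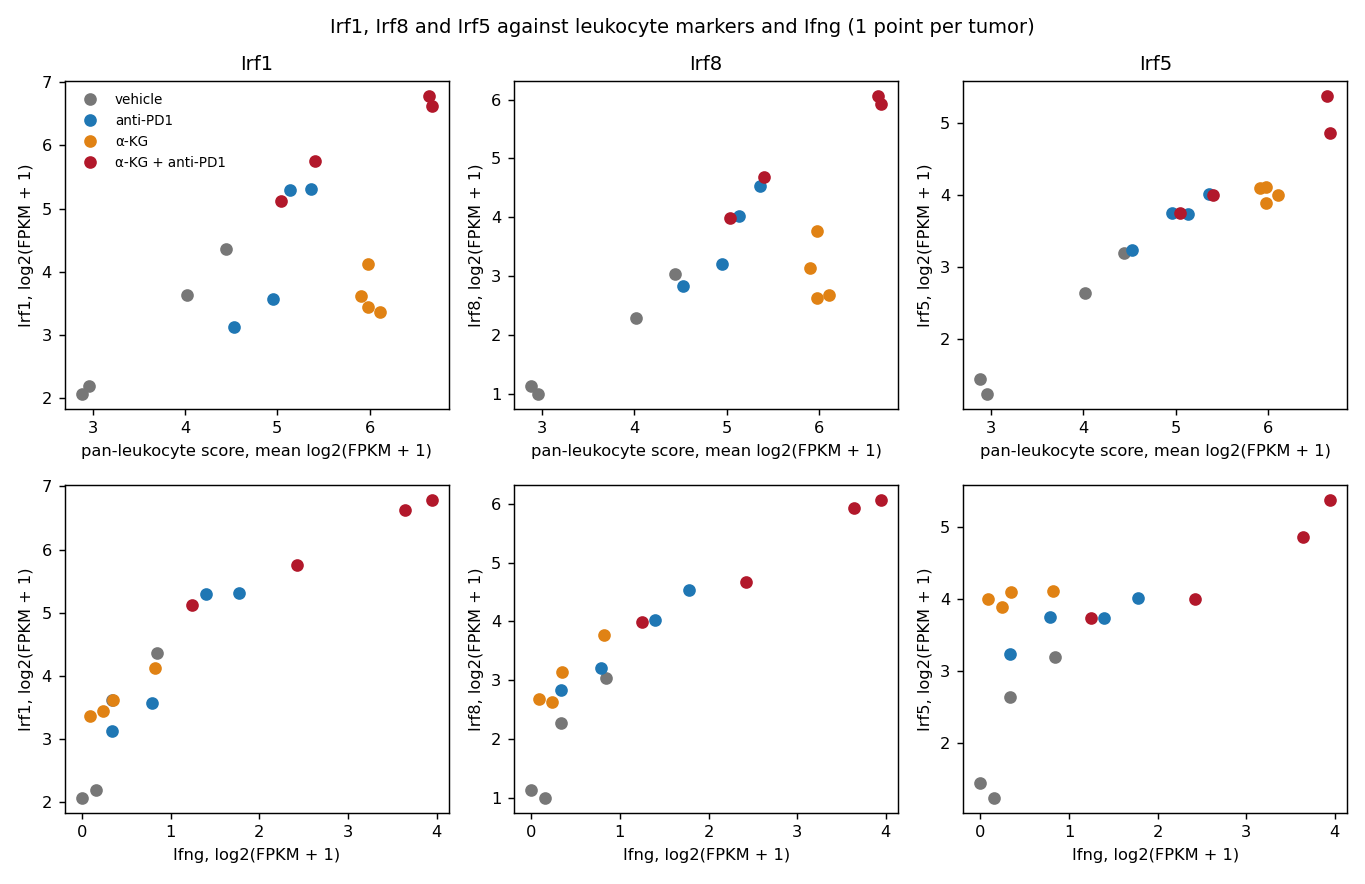
Irf1, Irf8 and Irf5 against the pan-leukocyte score (upper row) and against Ifng (lower row), each as log2(FPKM + 1), with 1 point per tumor colored by group. In the upper row the α-KG tumors lie below other tumors of similar score for Irf1 and Irf8 and, by less, for Irf5. There r was 0.685, 0.785 and 0.963. In the lower row the α-KG tumors lie among or above others of similar Ifng for Irf1, and above most of them for Irf8. There r was 0.929 and 0.919.

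With the pan-leukocyte score as a covariate, Irf1 and Irf8 were lower in α-KG than in anti-PD1 tumors (-1.98 and -1.85, adjusted p = 0.00305 and 0.000728), as was Irf5 (-0.66, adjusted p = 0.0149). Irf1 and Irf8 were then lower than in vehicle tumors as well (-2.55 and -1.86, adjusted p = 0.0300 and 0.0397). In both of these comparisons the scores of the groups do not overlap, so the treatment and the amount of leukocyte RNA cannot be told apart. Against α-KG, 7 members were then higher in α-KG + anti-PD1 tumors, with Irf1 at 2.51 and Irf8 at 2.18 (adjusted p = 2.95e-05 and 1.36e-05), and Irf5 at 0.53 (adjusted p = 0.00374). The share of all genes called in this fit is not given here. The α-KG tumors also had the high neutrophil score, whose part in these calls was not tested. Against vehicle limma then called 0 members (adjusted p of 0.972 or more), with Irf1 at -0.04, Irf5 at 0.00 and Irf8 at 0.31. Here too the scores of the groups do not overlap, and the same limit holds. It also holds with the red cell score, which also gave 0 calls against vehicle and did not overlap either (8.29 to 8.42 against 10.9 to 11.9). With the macrophage and monocyte score as covariate, added after seeing the data, the calls between α-KG + anti-PD1 and α-KG were 2, Irf1 at 1.49 (adjusted p = 0.00340) and Irf8 at 1.17 (adjusted p = 0.00154). That score gave 1 call between α-KG and vehicle, Irf1 lower (-1.65, adjusted p = 0.0331), with Irf5 not called, and these groups do not overlap in it.

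The order of levels changed with the treatment. In vehicle tumors Irf3 led with a mean of 21.8 FPKM ± 2.71 (SD, n = 4), above Irf1 in 4 of 4 tumors, while Irf1, Irf7, Irf9 and Irf2, with means from 9.38 down to 6.93 FPKM, did not differ from their neighbors beyond the spread. Irf5 (4.10 FPKM) followed, below Irf2 in 3 of 4 tumors. Irf5 was above Irf8 (3.32 FPKM), and Irf8 above Irf4 (0.288 FPKM), in 4 of 4. In anti-PD1 tumors Irf3 (25.1 FPKM) and Irf1 (23.8 FPKM) did not differ beyond the spread. In α-KG tumors Irf3 (22.6 FPKM) was followed by Irf5 (15.2 FPKM), and Irf3 was above Irf5 in 4 of 4. In α-KG + anti-PD1 tumors Irf1 led with 73.5 FPKM ± 35.8 (SD, n = 4), above Irf8 (41.3 FPKM) in 4 of 4. From Irf8 to Irf9, neighbors in that group did not differ beyond their spread. The ratio of Irf1 to its competitor Irf2 was 2.88 to 5.69 with both agents, 0.926 to 3.69 after anti-PD1, 0.814 to 1.68 after α-KG and 0.526 to 2.68 after vehicle, again with no test.

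The genes most alike to each member, by Pearson's r of log2(FPKM + 1) over the 16 tumors, differed between members. Closest to Irf1 were Mov10, Trim21, Dhx58, H2-K1 and Parp10 (r = 0.992 to 0.989), of which Dhx58 encodes an RNA sensor and H2-K1 an MHC class I heavy chain. Closest to Irf7 were Samhd1, Slfn8, Ifi206, Gm4070 and Spint2 (0.972 to 0.957), and to Irf9 Parp14, C4b, Oas1a, Sp110 and Tbl1xr1 (0.980 to 0.966). Several of these, such as the nuclease gene Samhd1 and the antiviral gene Oas1a, are known interferon-stimulated genes. Irf5 was closest to Laptm5, Mpeg1, Nckap1l, Csf1r and P2ry6 (0.993 to 0.990), among which Mpeg1 and Csf1r mark macrophages. Irf8 was closest to H2-DMa, Gpr65, Unc93b1, Tmem229b and Cd74 (0.993 to 0.984), where H2-DMa and Cd74 serve MHC class II presentation and Unc93b1 carries Toll-like receptors to endosomes. Irf4 was closest to Camk4, Pced1b, Klk1, Cbfa2t3 and Gab3 (0.950 to 0.928), Irf2 to Cmip, Camk1d, Rnf19b and Rbms1 (0.986 to 0.964), and Irf3 to Zfp346, Idua, Lenep, Stxbp5 and Cacnb4 (0.967 to 0.960). The tumors share their group differences and their scaling, so such values describe likeness only.

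Upstream of the IRFs, the ligands were at low levels, except Ifng in α-KG + anti-PD1 tumors and in some anti-PD1 tumors. Ifnb1 reached at most 0.72 FPKM, Ifna1, Ifna2 and Ifna4 were at 0 in most tumors and at 0.15 FPKM or less in the rest, and none of them was tested. Of 7 tested ligands and receptors 6 were higher in α-KG + anti-PD1 than in vehicle tumors and 4 were higher in α-KG than in vehicle, where 34.9% and 8.4% of all genes were. The latter were the receptor chains Ifngr2, Ifnar1, Ifnar2 and Il10rb, with log2 differences of 0.46, 0.41, 0.58 and 0.47, and in α-KG + anti-PD1 against vehicle only 2 of the 7 passed after centering. In α-KG against vehicle, Ifng differed by 0.04 (adjusted p = 0.967). The kinase genes Jak1, Jak2 and Tyk2, which act at the interferon receptors, rose by 0.45, 0.72 and 0.90 between α-KG + anti-PD1 and vehicle. Stat2, whose product joins IRF9 in ISGF3, rose by 2.18 there, whereas in α-KG against vehicle it differed by 0.23 (adjusted p = 0.742).

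Of 20 tested sensors, adaptors and kinases that activate IRF3, IRF5 and IRF7, 15 were higher in α-KG + anti-PD1 than in vehicle tumors (34.9% of all genes). Among them were Tlr9 (1.76), Myd88 (1.54), Tlr8 (1.48), Tlr7 (1.43) and Ikbke (1.37), and among those not called were the adaptors Mavs (0.06), Ticam1 (0.12) and Traf6 (-0.05). Under quantile normalization or centering 11 of the 20 were higher and 2 lower. In α-KG against vehicle 4 were higher (8.4% of all genes), Myd88 (1.33), Tlr8 (1.04), Traf3 (0.77) and Tlr4 (0.49). Of 11 DNA-binding partners and cofactors 8 rose against vehicle (34.9% of all genes), including Spi1 (2.45), which encodes PU.1, the partner of IRF4 and IRF8, and Batf3 (1.04). In α-KG against vehicle 3 rose (8.4% of all genes), Spi1 (2.67), Ikzf1 (1.43) and Batf (1.32). Spi1, like Irf5, did not differ between α-KG + anti-PD1 and α-KG by a called amount (-0.21, adjusted p = 0.711), whereas Batf3 rose there (0.91, adjusted p = 0.00304). Irf2bp2, a corepressor that binds IRF2, rose by 0.83 against vehicle and by 1.05 against α-KG, and its relatives Irf2bp1 and Irf2bpl were not called (0.04 and 0.10 against vehicle).

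Downstream, 12 of 12 genes listed as targets of IRF1 were higher in α-KG + anti-PD1 than in vehicle tumors, as were 34.9% of all genes, with a median of 2.50 against 0.15 over all genes. Gbp2, an interferon-induced GTPase gene, rose by 3.89, the peptide transporter gene Tap1 by 3.43 and the class I transactivator gene Nlrc5 by 3.19. Against α-KG 10 were higher (31.8% of all genes) and Il15 lower (-0.77; 6.47% of all genes), with Cd274 at -0.10 (adjusted p = 0.814). Between α-KG and vehicle 2 of the 12 rose (8.4% of all genes), Cd274 (2.45) and Il15 (1.52), and Gbp2, Tap1 and Nlrc5 differed by 0.77, 0.39 and 0.01 without a call. Cd274 encodes the PD-1 ligand PD-L1, and Il15 a growth factor of T and NK cells. Of 14 tested ISGF3 targets 12 rose against vehicle (34.9% of all genes; median 1.60), led by Oas2 (2.52) and Oasl2 (2.35), and Isg15 (0.35) and Rsad2 (0.41) were not called. From vehicle to α-KG 4 of the 14 rose (8.4% of all genes), Oasl2 (1.499), Oasl1 (1.37), Oas3 (1.34) and Rtp4 (1.29).

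Cytokine genes listed as IRF5 targets had their highest mean levels in α-KG tumors. Tnf was at 35.3, 10.9, 44.1 and 33.8 FPKM after α-KG alone and at 7.40, 2.24, 10.1 and 15.7 after both agents, where the anti-PD1 tumors held 0.89 to 1.96 and the vehicle tumors 0.12 to 0.77. Tnf and Il23a were the 2 tested genes of 5, both called higher between α-KG and vehicle (4.38 and 1.26; 8.4% of all genes). Both were lower in α-KG + anti-PD1 than in α-KG (-1.77 and -1.18; 6.47% of all genes). The part of the high neutrophil score of the α-KG tumors in these values was not tested. The interaction term was called lower for both, -2.53 for Tnf and -1.25 for Il23a (adjusted p = 0.0189 and 0.0272). In either direction 11.1% of all genes were called. That of Irf5 had the same sign (-1.08) and was not called. Il12a was at 0.37 to 1.10 FPKM in α-KG tumors and at most 0.14 elsewhere, and Il6 and Il12b did not exceed 0.72 FPKM. Of 7 tested genes listed as IRF4 or IRF8 targets all 7 rose between α-KG + anti-PD1 and vehicle (34.9% of all genes), and 4 did after centering. Between α-KG and vehicle 4 rose (8.4% of all genes), namely the phagocyte oxidase genes Ncf1 (2.72) and Cybb (2.01), the dendritic cell gene Wdfy4 (0.87) and Prdm1 (0.72). Between α-KG + anti-PD1 and α-KG only 1 of the 7 was called, Zbtb46, a gene of classical dendritic cells (0.59; 31.8% of all genes were higher). Irf8 rose there by 2.11.

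Markers of the leukocyte types also differed between groups, in part unlike the IRF genes. Between α-KG + anti-PD1 and vehicle 10 of 10 macrophage and monocyte markers, 8 of 8 T cell markers, 3 of 3 NK cell markers and 4 of 4 type 1 dendritic cell markers tested were higher, as were 34.9% of all genes. Of the neutrophil markers 2 of 5 were higher there, and of the B and plasma cell markers 1 of 3. The listed NK cell genes summed to 0.07 to 1.01 FPKM in vehicle tumors, and the T cell genes to 1.23 to 11.0. The NK cell genes could thus pass the filter only with the help of treated tumors, which favors calls of higher against vehicle. Between α-KG and vehicle 6 of 10 macrophage and monocyte markers and 5 of 5 neutrophil markers were higher (8.4% of all genes), and 0 of 8 T cell markers were called by limma (0 at an unadjusted p under 0.05). Between α-KG + anti-PD1 and α-KG 8 of 8 T cell markers were higher (31.8% of all genes) and 5 of 5 neutrophil markers were lower (6.47% of all genes). Higher there were also 3 of 3 NK cell markers and 4 of 10 macrophage and monocyte markers, whereas limma called 0 of 7 pan-leukocyte markers. The macrophage and monocyte score was 4.63 to 5.07 for α-KG tumors and 4.84 to 6.24 for tumors given both agents, and the T cell score 0.818 to 2.53 and 1.96 to 4.61. The part of each cell type in the IRF levels was not tested.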

How the data were processed

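The authors deposited 1 table of FPKM values with 2 decimals for 18929 genes and 16 tumors. Per the labels, the libraries were poly(A)-selected and strand-marked, and the submitters' processing notes name HISAT, Bowtie2 and the build mm10. How the FPKM values were computed, any filter and any scaling between tumors are not given in the sources used here, and with no counts the depth is unknown. Groups came from the labels, each tumor being from its own mouse.

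Values were changed to log2(FPKM + 1), which understates changes of low genes. A limma 3.58.1 model (trended eBayes, R 4.3.3) with a mean for each group took in all 16 tumors and the 12850 genes that passed the filter (0.5 FPKM or higher in 4 tumors or more), with Benjamini-Hochberg adjustment over all of them and a threshold of 0.05. The fit was tested on simulated data. Relations used Python 3.11.15, numpy 2.4.6 and scipy 1.17.1, with 100000 two-sided permutations (within groups for deviations from group means). Promoter windows came from RefSeq (GRCm38.p6) and gene positions from GENCODE vM21, and all 8 genes matched. Named genes were the 8 members, the written pathway and marker lists and, for each member, up to 5 genes most alike to it. A few of these are not reported here. Replicate numbers did not pair the tumors. The members and lists were chosen with earlier results of these data known. Alternatives were other scalings, pseudocount, filter, covariates, a replicate block, fits of single pairs of groups and leaving out each tumor.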

Additional observations from a re-analysis of the deposited data

How the results depend on the processing

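The deposited FPKM carry no depth, so counting error could not be separated from differences between mice, and with 4 tumors a group small changes in low genes such as Irf4 were not resolved. Leaving out 1 tumor at a time, the α-KG + anti-PD1 group had 8 to 8 calls against vehicle, 0 to 6 against anti-PD1 and 3 to 7 against α-KG. Anti-PD1 against vehicle had 0 to 2, α-KG against vehicle 1 to 2, and α-KG against anti-PD1 and the interaction 0 to 0. The differences that crossed 0 in this way were Irf3 in α-KG against vehicle (-4.73e-05 to 0.13), Irf7 (-0.027 to 0.34), Irf9 (-0.23 to 0.23) and Irf2 (-0.055 to 0.10) in α-KG against anti-PD1, and the interaction terms of Irf9 (-0.041 to 0.42), Irf4 (-0.12 to 0.20), Irf8 (-0.068 to 0.71) and Irf2 (-0.053 to 0.22). Replicate numbers did not pair the tumors (median correlation of deviations 0.00689 over 24 same-numbered pairs, lowest -0.642, and 3 of 16 tumors correlated best with their own number). With a replicate block the count against α-KG went from 6 to 5, Irf2 being at 0.54 with adjusted p = 0.0508, and no other member's call changed.

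Against anti-PD1 the 2 calls became 7 after rescaling to the same FPKM sum, 1 when red cell genes were left out of that sum, 1 with a pseudocount of 0.1, 1 without a filter on low values and 0 when only both compared groups were fitted. Against α-KG the 6 calls became 3 under quantile normalization and 2 after centering on tumor medians. Anti-PD1 against vehicle had 1 call with a pseudocount of 0.1 (Irf5, 1.86, adjusted p = 0.0480), and α-KG against vehicle 2 when only these groups were fitted (Irf5 and Irf7). The shares of all genes called in these and the leave-one-out fits are not given here. The median difference of all genes between α-KG + anti-PD1 and vehicle, 0.15, became -0.11 under quantile normalization, -0.16 after centering and 0.34 at equal sums. Centering turned the sign of Irf3 against anti-PD1 (-0.069), Irf9 in α-KG against anti-PD1 (0.027) and the interaction of Irf9 (-0.016), Irf2 (-0.12) and Irf3 (-0.089). Quantile normalization turned that of Irf9 in α-KG against anti-PD1 (0.013) and the interaction of Irf2 (-0.057) and Irf3 (-0.029). Equal sums turned that of Irf2 in α-KG against anti-PD1 (-0.0197, or -0.067 without red cell genes) and the interaction of Irf4 (0.11, or 0.021).

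A marker score as covariate had the largest effect among the alternatives run, and the scores for red cells and for macrophages and monocytes were chosen after seeing the data. The shares of all genes called in these covariate fits are not given here. With the pan-leukocyte score the calls were 0 against vehicle and 0 against anti-PD1 for α-KG + anti-PD1, 2 for α-KG against vehicle (both lower), 3 for α-KG against anti-PD1 and 4 for the interaction. With the macrophage and monocyte score they were 0, 0 and 2 for both agents compared with vehicle, with anti-PD1 and with α-KG, 1 for α-KG against vehicle (lower, Irf1, with Irf5 no longer called), 1 for α-KG against anti-PD1 and 2 for the interaction. With the red cell score they were 0, 0 and 0 for the same 3 comparisons. Signs turned with the pan-leukocyte score were α-KG + anti-PD1 against vehicle for Irf1 (-0.035) and against anti-PD1 for Irf5 (-0.13), anti-PD1 against vehicle for Irf1 (-0.57), Irf7 (-0.16), Irf9 (-0.17), Irf8 (-0.011) and Irf2 (-0.11), and α-KG against vehicle for Irf1 (-2.55), Irf7 (-0.44), Irf9 (-0.76), Irf4 (-0.023), Irf5 (-0.53), Irf8 (-1.86), Irf2 (-0.51) and Irf3 (-0.25). So were α-KG against anti-PD1 for Irf7 (-0.28), Irf4 (-0.042), Irf5 (-0.66) and Irf2 (-0.39), and the interaction for Irf4 (0.27) and Irf5 (0.40). With the macrophage and monocyte score they were α-KG + anti-PD1 against vehicle for Irf1 (-0.17) and Irf5 (-0.064), against anti-PD1 for Irf5 (-0.039) and against α-KG for Irf5 (-0.25), and anti-PD1 against vehicle for Irf1 (-0.81), Irf7 (-0.22), Irf9 (-0.30), Irf5 (-0.025), Irf8 (-0.26), Irf2 (-0.10) and Irf3 (-0.019). So were α-KG against vehicle for Irf1 (-1.65), Irf7 (-0.079), Irf9 (-0.39), Irf8 (-1.01), Irf2 (-0.13) and Irf3 (-0.17), α-KG against anti-PD1 for Irf2 (-0.0303) and the interaction for Irf4 (0.14). With the red cell score they were α-KG + anti-PD1 against anti-PD1 for Irf1 (-0.19), Irf9 (-0.20), Irf5 (-0.27), Irf8 (-0.16) and Irf3 (-0.059) and against α-KG for Irf9 (-0.18) and Irf5 (-0.61), α-KG against vehicle for Irf3 (-0.0072), and the interaction for Irf1 (-0.20), Irf9 (-0.54), Irf4 (0.094), Irf8 (-0.87), Irf2 (-0.28) and Irf3 (-0.051). The cause of these changes was not tested.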

Other observations

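The listed genes of other leukocyte types gave values beside those of the IRFs. Among markers of classical dendritic cells, Ccr7, the receptor with which they migrate to lymph nodes, rose by 1.30 between α-KG and vehicle (adjusted p = 0.00340) and differed by -0.52 between α-KG + anti-PD1 and α-KG (adjusted p = 0.128). Clec10a rose by 1.47 and Flt3 by 0.88 between α-KG + anti-PD1 and vehicle (adjusted p = 0.00122 and 0.00943). Within the macrophage and monocyte list, the complement genes C1qa, C1qb and C1qc rose between α-KG + anti-PD1 and α-KG by 1.42, 1.24 and 1.32, whereas Csf1r, Adgre1 and Cd68 differed by 0.30, 0.43 and 0.11 without a call. Between α-KG and vehicle, Csf1r, Adgre1 and Cd68 rose by 2.27, 1.87 and 1.80, and the 3 complement genes, at 1.30, 1.37 and 1.17, did not pass. Mzb1, a gene of plasma cells and plasmacytoid dendritic cells, rose by 0.99 between α-KG + anti-PD1 and vehicle (adjusted p = 0.00674), while the B cell genes Cd79a and Cd79b differed by -0.28 and 0.41.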
